A study of Carica papaya with 55 samples.

Results

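RNA from pollen of papaya (Carica papaya) was set against RNA from the stamens of the same floral stage, to ask which sex-linked genes the male gametophyte and the organ that forms it use at different levels. The comparison used 6 of the 55 libraries of the series, 3 of pollen (Male_Pollen_S5) and 3 of stamens (Male_Stamen_S5), and all 193 features of the deposited tables. Of the features, 97 are on the X and 96, with the suffix MSY, on the Y's male-specific region. Both groups came from male flowers of genotype AU9, at a bud length of 15 to 20 mm (stage S5), with no treatment named. Stamens at a bud length of 7 to 12 mm (Male_Stamen_S4, 3 libraries), taken after meiosis, are given beside them. Every difference below is pollen minus stamen. Positions are those of the deposited tables, whose genome build is not named in the sources used here. It is not stated whether the stamens still held their pollen, whether plants were pooled, or whether each replicate was a different plant. The p-values therefore speak only of the spread among these libraries, which may be technical.

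Papaya males carry an X and a Y, and meiosis in the anther gives haploid grains that carry one or the other. A pollen library therefore pools X-bearing and Y-bearing grains, each of which can transcribe only the sex chromosome it received, beside RNA left from the diploid parent cells. The stamen is a diploid organ, with a filament and an anther whose wall and inner layers surround the grains, and pollen is known for a small, specialised set of transcripts. The tables name features and hold no description of what they encode, so no role is given for any of them, and no feature is a known marker with which the labels of pollen and stamen could be checked.

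Pollen libraries held 27741 to 28555 counts and S5 stamen libraries 96181 to 106846. These are totals over sex-linked features, not sequencing depth. Pollen libraries had counts at 120 to 126 features and S5 stamen libraries at 142 to 151. Levels are in CPM, the usual depth-scaled count unit, here taken against TMM-scaled totals of the sex-linked features and given as mean ± SD over 3 libraries, so a large rise of one feature lowers the share left to the others. Stamen replicate 3 stood apart from its group. Its log2 CPM correlated with those of the 3 S4 stamen libraries at r = 0.901 to 0.912, against 0.786 to 0.841 for replicates 1 and 2. With pollen it correlated at 0.528 to 0.556, against 0.647 to 0.705. These are correlations across features, which are not independent replicates. By chi-square per degree of freedom, which grows with counts, pollen replicates 1 and 2 were the closest of the 53 within-group pairs of libraries. By log2 CPM correlation they were not, at r = 0.982 against 0.984 to 0.991 among S4 stamens. A chi-square test between pollen replicates 1 and 2 gave 126.9 (df 87, p = 0.00339), and 94.5 without CpY17_MSY (df 86, p = 0.248). The test takes counts as independent, but reads that map to several places are counted at each. It therefore cannot decide whether the 2 differed by more than sampling noise. They were kept as separate samples and, as an alternative, summed.

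A few genes took a large share of the counts, and their shares differed widely between pollen and stamens. CpY17_MSY, which has no X partner, took a share of 32.7 ± 2.66% in pollen and 7.86 ± 5.23% in S5 stamens (SD, n = 3 each). The X and Y copies of CpXY36 together took 0.972 ± 0.190% in pollen and 37.4 ± 5.66% in S5 stamens. Both copies of CpXY13 took 0.00119 ± 0.00205% in pollen, which is 1 count over the 3 libraries, and 5.07 ± 0.204% in S5 stamens. CpXY12 took 9.24 ± 0.840% in pollen and 3.05 ± 0.70% in S5 stamens. The groups did not overlap for any of these 4 genes. In these bulk samples, fewer cells of a type and less RNA per cell cannot be told apart.

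**Figure D1:**
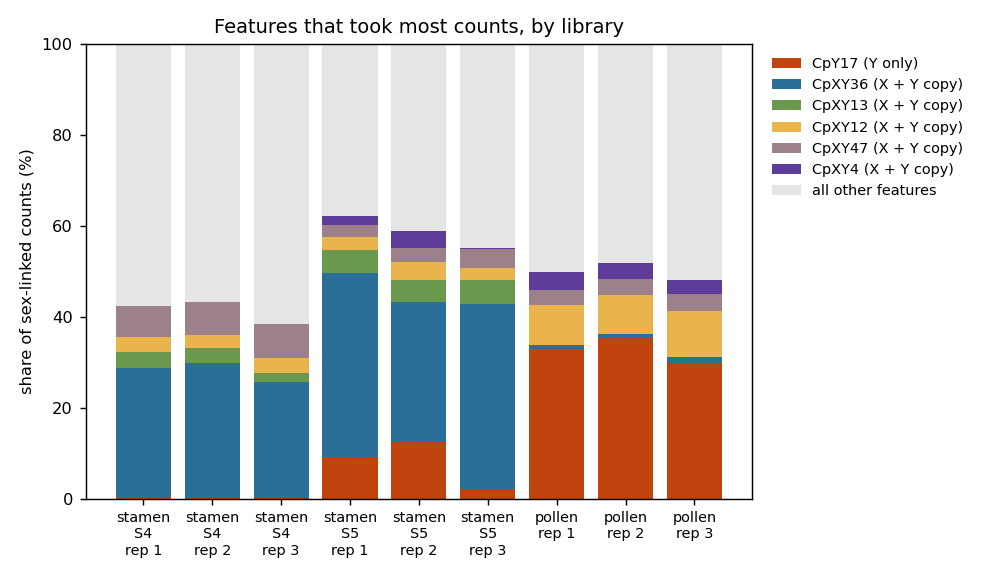
Share of the sex-linked counts (%, vertical axis) taken by 6 genes in each S4 stamen, S5 stamen and pollen library, with X and Y copies summed where there are both and all other features in grey. CpY17 took 29.9 to 35.2% in pollen and 2.12 to 12.4% in S5 stamens, whereas CpXY36 took 30.9 to 40.7% in S5 stamens and 0.814 to 1.18% in pollen.

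Pollen and S5 stamens differed at 100 of the 139 tested features (71.9%; quasi-likelihood test of edgeR, Benjamini-Hochberg adjusted). Of these, 35 were higher in pollen (25.2%) and 65 lower (46.8%). Without overlap between the 3 pollen and the 3 stamen libraries, 33 were higher (23.7%) and 64 lower (46%). The fitted downward differences were larger: among the features that passed, 5 of the higher ones differed by over 4-fold and 50 of the lower ones did, and 1 and 30 by over 16-fold. Of the lower features, 6 had 0 pollen counts and 13 had 1 to 3, where the fitted fold depends on the prior count. CpXY33_X_v2, fitted at -6.66, was at least 4.38-fold lower by its counts. The 30 is therefore not a firm number. The median over all tested features was -0.57 on the log2 scale, and -0.63 to -0.18 over 5 ways of scaling. Of the 100 calls, 93 were the same in all 5 scalings (35 higher and 58 lower), 7 were lost in at least 1 of them and none turned. The other 54 features were too low to test: 30 had no counts in the 6 libraries, and the highest count of any of them in 1 library was 16. The 139 tested features include PYCpXY31_X, CpXY31_X and PYCpXY7_MSY, which had no counts in these 6 libraries either and could not pass.

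**Figure D2:**
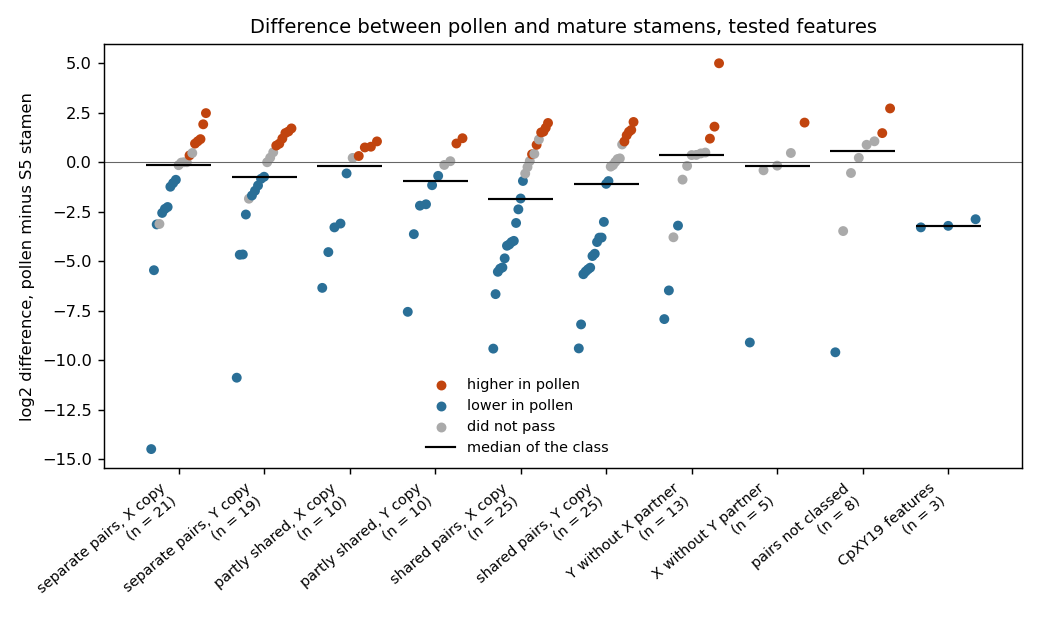
Log2 difference, pollen minus S5 stamen, of each of the 139 tested features (points, red if higher, blue if lower and grey if not past an adjusted p of 0.05), by class of feature, with the median of each class as a bar. Shared pairs have medians of -1.83 (X copies) and -1.09 (Y copies), while points for features without pollen counts depend on the prior count of the fit.

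CpY17_MSY (Y, 3981090 to 3985922) was the most abundant feature of pollen. It had 9272, 10064 and 8306 counts in the pollen libraries and 8739, 11895 and 2265 in the S5 stamens. In CPM the groups did not overlap, at 402315 ± 67689 in pollen and 115786 ± 78598 in S5 stamens, and stamen replicate 3 was lowest at 29965. The log2 difference was 1.80 (SE 0.31, adjusted p = 1.8e-06, edgeR), and 1.34 (adjusted p = 3.55e-06) without stamen replicate 3 and 2.30 without stamen replicate 2. S4 stamens stood at 1920 ± 373 CPM, so the log2 difference of pollen from them was 7.71 (SE 0.41, adjusted p = 1.2e-20). In females, which carry no Y, it was not at 0 but at 2425 CPM in ovules and 3867 CPM in S5 pistils, so its counts cannot all be assigned to the Y. Per kilobase of exon it reached 214912 CPM in pollen, against 106395 CPM for CpXY12_X and 95982 CPM for CpXY12_MSY, the next in order.

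PCpY1_MSY (Y, 477941 to 478677), without an X partner, had the largest rise on few counts. It had 37, 24 and 6 counts in pollen and 2, 0 and 4 in S5 stamens, and the groups did not overlap in CPM. The log2 difference was 5.0 (SE 0.73, adjusted p = 8.9e-08), and 5.83 without stamen replicate 3 or 5.61 without pollen replicate 3. Its mean level was 985 ± 682 CPM in pollen, 27.8 ± 26.6 CPM in S5 stamens, 2462 CPM in S1 stamens and 7527 CPM in the earliest male buds.

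CpXY11_X (X, 3496804 to 3499929) had 674, 716 and 971 counts in pollen and 314, 301 and 666 in S5 stamens. All 3 pollen libraries were above all stamen libraries, at 33972 ± 5288 against 6086 ± 2361 CPM, with a log2 difference of 2.48 (SE 0.20, adjusted p = 2.3e-14). Its Y copy, CpXY11_MSY (Y, 7416131 to 7419241), was also higher, at 17098 ± 1363 against 6154 ± 1783 CPM and a log2 difference of 1.47 (SE 0.25, adjusted p = 1.8e-06). The X copy stood at 24299 CPM in S3 stamens and 10784 CPM in S4 stamens, between the levels of S5 stamens and pollen.

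CpXY43, CpXY42, CpXY45 and CpXY40 are shared pairs, in which reads of the X and Y copies are not told apart, and both copies of each were higher in pollen. CpXY43_X had 560, 585 and 561 counts in pollen and 484, 469 and 574 in S5 stamens, or 24745 ± 2428 against 7411 ± 168 CPM. Its mean level lay between 4920 and 7411 CPM in stamens from S1 to S5, below pollen at every stage. The log2 differences were 1.74 (SE 0.20) and 1.63 (SE 0.14) for the X and Y copies of CpXY43, 1.51 (SE 0.25) and 1.54 (SE 0.24) for those of CpXY42, and 1.54 (SE 0.20) and 1.36 (SE 0.18) for those of CpXY45.

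CpXY40 was less firm. CpXY40_MSY had 177, 147 and 216 counts in pollen and 112, 204 and 63 in S5 stamens (2.03, SE 0.64, adjusted p = 0.0046). CpXY40_X differed by 1.98 (SE 0.68, adjusted p = 0.0087), by 1.63 without stamen replicate 3, where it did not pass (adjusted p = 0.0516), and by 2.61 without replicate 2. Against S4 stamens neither copy passed, with differences of 0.30 for both.

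Among separate pairs, where under 5% of female counts fall on the Y copy, PXCpXY14 and CpXY12 rose in both copies. PXCpXY14_X had 187, 189 and 186 counts in pollen and 146, 156 and 139 in S5 stamens (log2 difference 1.91, SE 0.17), and PXCpXY14_MSY rose by 1.71 (SE 0.30). CpXY12_X rose from 26178 ± 8036 to 58730 ± 4113 CPM (1.17, SE 0.13) and CpXY12_MSY from 18366 ± 3715 to 53846 ± 2553 CPM (1.55, SE 0.26). Pollen was above each S5 stamen library for all 4 of these copies. PCpX1_X (X, 1960931 to 1962115), without a Y partner, had 87, 97 and 187 counts in pollen and 73, 58 and 147 in S5 stamens (2.00, SE 0.42, adjusted p = 5.0e-05). Its mean of 5292 ± 2036 CPM in pollen was under that of S3 stamens, at 12110 ± 11006 CPM. The S3 libraries varied widely, and replicate 2, at 1731 CPM, was below every pollen library. CpY19_MSY, without an X partner, was at 18395 ± 543 CPM in pollen against 8054 ± 36.0 CPM in the stamens (1.19, SE 0.17, adjusted p = 8.9e-08).

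**Figure D3:**
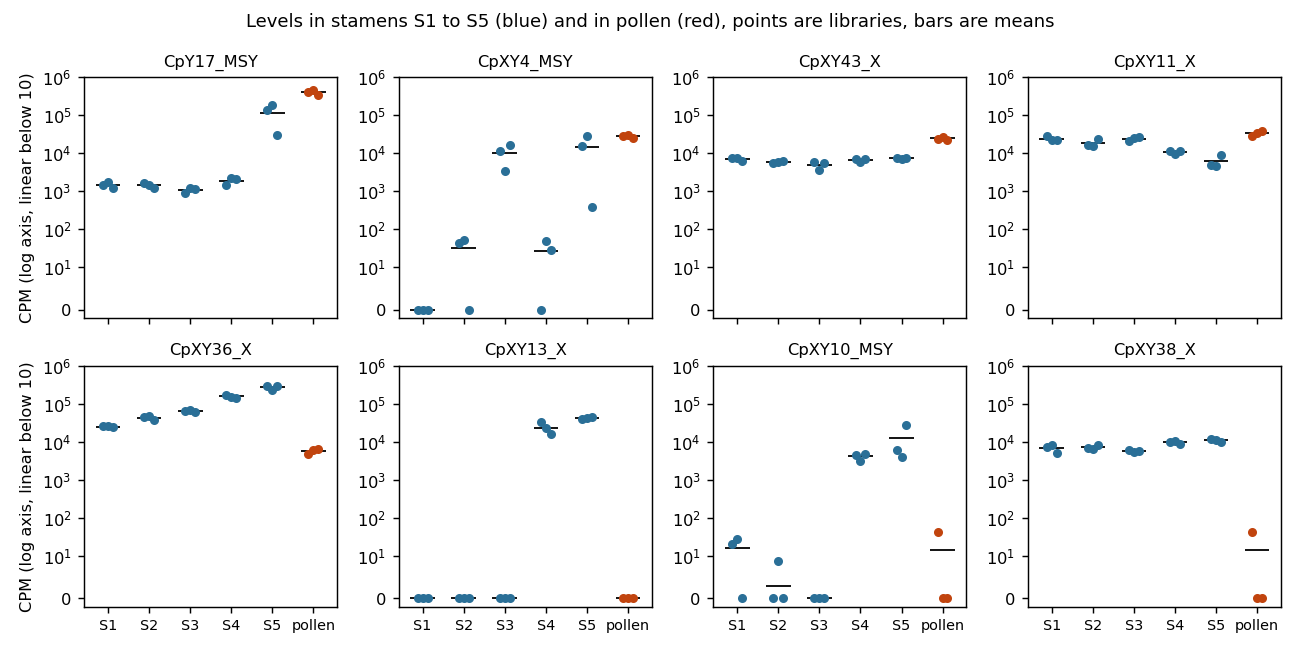
CPM (log axis, linear below 10) of 8 features in stamens from S1 to S5 (blue) and in pollen (red), with 1 point per library and a bar at the mean of 3. CpY17_MSY, CpXY43_X and CpXY11_X are highest in pollen, CpXY36_X rises to S5 stamens and stands at 5898 CPM in pollen, and CpXY13_X, CpXY10_MSY and CpXY38_X have at most 1 count over the 3 pollen libraries.

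Several features abundant in mature stamens had no or almost no counts in pollen. Among the 65 features that fell, 6 had 0 counts over the 3 pollen libraries and 13 had 1 to 3. CpXY13_X (X, 3895165 to 3898270) had 2702, 2743 and 3447 counts in S5 stamens and 0 in each pollen library, so it was at least 998-fold lower in pollen, taking the limit of 3 counts over the group that a count of 0 allows (adjusted p = 9.7e-10). CpXY13_MSY (Y, 907975 to 908290) had 2152, 1947 and 2194 counts in S5 stamens and 1 in pollen, a ratio of 0.000472 (95% exact counting interval 1.2e-05 to 0.00263). Such limits and intervals cover counting error only. The single pollen count of CpXY13_MSY came from replicate 1, as did those of CpXY10_MSY, CpXY38 and CpXY26_X, and both copies of CpXY13 passed without any 1 library. CpXY13 is a separate pair, and both copies had 0 counts in S3 stamens before they reached 23779 ± 8378 (X) and 10023 ± 2931 CPM (Y) at S4. Outside stamens the X copy was found in ovules, at 8863 CPM, and stood between 0 and 68 CPM in male buds, pistillodes (the reduced pistils of male flowers) and S5 pistils.

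CpXY10_MSY (Y, 1821084 to 1821351) followed the same course, with 0 counts in S3 stamens, 4246 ± 883 CPM at S4 and 12594 ± 12942 CPM at S5. It had 414, 258 and 2077 counts in S5 stamens and 1 in pollen (ratio 0.00108, interval 2.7e-05 to 0.00603). Stamen replicate 3 was highest by far, and without it the fitted log2 difference moved from -9.59 to -8.30 and still passed (adjusted p = 1.4e-08). The pair has too few female counts to be classed, and CpXY10_X had 4 counts over the S5 stamens and 0 in pollen.

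CpXY38, a shared pair, had counts in every other male group and in females. CpXY38_X (X, 5002961 to 5004061) had 793, 720 and 758 counts in S5 stamens and 1 in pollen, a ratio of 0.00131 (interval 3.3e-05 to 0.00730). It stood between 5123 and 11087 CPM in the other male groups. CpXY38_MSY had 2252 counts in S5 stamens and 1 in pollen.

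CpXY36, also a shared pair, took the largest share of S5 stamen counts and fell to a level that was still well counted in pollen. CpXY36_X (X, 4948529 to 4951174) had 19604, 14892 and 21821 counts in S5 stamens and 114, 131 and 164 in pollen. In CPM it stood at 272675 ± 36700 against 5898 ± 914, with no overlap and 46.3-fold lower in pollen (log2 difference -5.53, SE 0.17, adjusted p = 1.7e-28). CpXY36_MSY was 45.9-fold lower. Its level in pollen was below all other male groups, which held 25335 (S1 stamens) to 272675 CPM of the X copy.

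The other features without pollen counts had far fewer counts in stamens than CpXY13_X. CpX15, without a Y partner, had 67, 117 and 21 counts in S5 stamens and was at least 23.0-fold lower in pollen, and it passed without stamen replicate 2, its highest library. CpXY33_MSY had 36, 25 and 53 counts (at least 12.8-fold), CpXY17_MSY 17, 33 and 22 (at least 8.08-fold), and CpXY33_X_v2 8, 14 and 17 (at least 4.38-fold). CpXY33 is a shared pair, so its copies are not separate results, and CpXY17 is a partly shared pair. PCpY10_MSY had 9, 29 and 58 counts (at least 10.8-fold, adjusted p = 0.0177) and did not pass without stamen replicate 3 (adjusted p = 0.0645), without pollen replicate 1 or 3 (0.0564 and 0.0569), or with male libraries alone (0.0788). CpXY26_X of a partly shared pair had 50, 81 and 146 counts in S5 stamens and 1 in pollen (ratio 0.0107, interval 0.000271 to 0.0603), and CpXY17_X 23, 20 and 35 against 1. PXYCpXY3_MSY, without an X partner, had 123, 100 and 359 against 2 (ratio 0.0102, interval 0.00123 to 0.0370), with both pollen counts in replicate 2. The fitted log2 difference of PXYCpXY3_MSY was -6.47, and it passed at -5.80 without stamen replicate 3, its highest library, and at -10.52 without pollen replicate 2. In females, which carry no Y, it stood at 3280 CPM in S5 pistils and 2205 CPM in ovules, beside 2724 CPM in S5 stamens. PCpY10_MSY stood at 251 and 275 CPM in these female groups, beside 451 CPM in S5 stamens. CpXY33_MSY and CpXY17_MSY stood at 2427 and 2073 CPM in S5 pistils, beside 546 and 354 CPM in S5 stamens. The counts of these features thus cannot all be assigned to the Y.

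Large falls without loss were found in many pairs. CpXY8_MSY (Y, 1152201 to 1164758) had 536, 604 and 1094 counts in S5 stamens and 11, 13 and 5 in pollen, or 10665 ± 3351 against 428 ± 207 CPM (-4.66, SE 0.38, adjusted p = 2.0e-14). PXYCpXY1_X, of a separate pair, fell by 5.45 (SE 0.22) on 4 pollen counts, and its span overlaps PYCpXY23_X by 339 bases on the opposite strand. The fall of CpXY37_MSY, of a shared pair, was 5.65 (SE 0.24). CpXY16_X, of a shared pair, went from 11671 ± 1883 to 753 ± 441 CPM (-3.97, SE 0.23). The 3 features of CpXY19, with 2 named copies on the X and 1 on the Y, fell by 2.88 to 3.29, and stamen replicate 3 had the most counts at each. CpXY47, among the most abundant genes of both groups, did not pass in either copy (-0.24, adjusted p = 0.0836, and -0.14, adjusted p = 0.348), and its calls moved both ways with the processing. CpXY47_MSY passed as higher when scaled by the median of ratios (0.27, adjusted p = 0.0358) and as lower without stamen replicate 1 (-0.31, adjusted p = 0.0401). CpXY47_X passed as lower without stamen replicate 1 (-0.34, adjusted p = 0.0236), with TMM on X features (-0.30, adjusted p = 0.0173) and with no filter (-0.33, adjusted p = 0.0253).

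A group of 8 features was over 4-fold higher in S5 than in S4 stamens. In pollen against S5 stamens 2 of the 8 were higher (CpY17_MSY and CpXY21_MSY), 6 did not pass and 0 were lower, beside 25.2% higher and 46.8% lower over all features. The 8 were chosen on S5 stamen values that also enter this comparison, so nothing is read from these counts. CpXY4_MSY (Y, 3699169 to 3729741) had 0, 3 and 2 counts in S4 stamens, then 1026, 1875 and 29 in S5 stamens and 663, 641 and 602 in pollen. CpXY4_X had 902, 1721 and 51 in S5 stamens and 459, 401 and 231 in pollen. In both copies stamen replicate 3 was far below replicates 1 and 2 and above all S4 stamen libraries. The log2 differences of pollen from S5 stamens, 0.88 (SE 0.71, adjusted p = 0.289) and 0.22 (SE 0.75, adjusted p = 0.825), did not pass. CpY1_MSY had 992, 1145 and 924 counts in S5 stamens and 329, 340 and 237 in pollen, or 15024 against 13226 CPM (-0.18, SE 0.53, adjusted p = 0.792), after 2696 CPM in S4 stamens. CpXY21_X, CpX26 and PXCpXY21_MSY were the others that did not pass.

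Stamen replicate 3 was the lowest of its group in all 8 of these features. Its part in these results was not tested beyond leaving it out. In S3 stamens CpXY4_MSY had 800, 221 and 1173 counts, whereas CpXY4_X had 0 in each library. Counting did not use strand, and the spans of CpXY4_MSY and PYCpXY5_MSY overlap by 260 bases on opposite strands. Exons cover only 588 bases of the CpXY4_MSY span, and whether exons of the 2 features overlap was not tested. Without stamen replicate 3, 91 features passed (28 higher and 63 lower), and 35 higher and 69 lower ones did not overlap.

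Against S4 stamens, which share no library with the S5 stamens, 114 of 139 features differed from pollen (82%), 44 higher (31.7%) and 70 lower (50.4%), with a median log2 difference of -0.84. The pollen libraries are the same in both comparisons, so the values are given side by side only. CpXY13_X, CpXY38_X and CpXY10_MSY had 4917, 2012 and 881 counts over the S4 stamens, against at most 1 in pollen. CpXY36_X was at 156607 ± 16993 CPM there. CpXY11_X, PXCpXY14_X and CpXY43_X were higher in pollen by 1.66 (SE 0.20), 1.98 (SE 0.17) and 1.89 (SE 0.20).

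For genes with a copy on each chromosome, the calls of both copies were compared within classes of pairs. Female libraries, which have no Y, served to class the pairs by how many of their reads fell on the Y copy: 21 were separate (under 5%), 10 partly shared, 25 shared (over 25%) and 12 had too few female counts. In the 25 shared pairs both copies fell in 14, both rose in 5, neither passed in 5 and 1 copy passed in 1. Reads that map to both copies are counted at each, so such pairs repeat nearly the same value, and the median size of the difference between the copies' log2 values was 0.17. Matching calls in shared pairs are therefore no result about the copies. In the 19 separate pairs with both copies tested, both fell in 7, both rose in 4, they went opposite ways in 2, 1 copy passed in 4 and neither in 2, and the median size was 0.715. The 2 pairs with opposite calls were CpXY14 and CpXY5, and the call of CpXY5_MSY was lost in several settings. Among separate pairs that rose in both copies, PYCpXY22_X (0.35, adjusted p = 0.0395) was not firm either. It did not pass with the 6 libraries alone (adjusted p = 0.159) or without stamen replicate 3 (0.245), among other settings. Of the 10 partly shared pairs, both copies fell in 4 and rose in 1, and 2 had opposite calls.

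**Figure D4:**
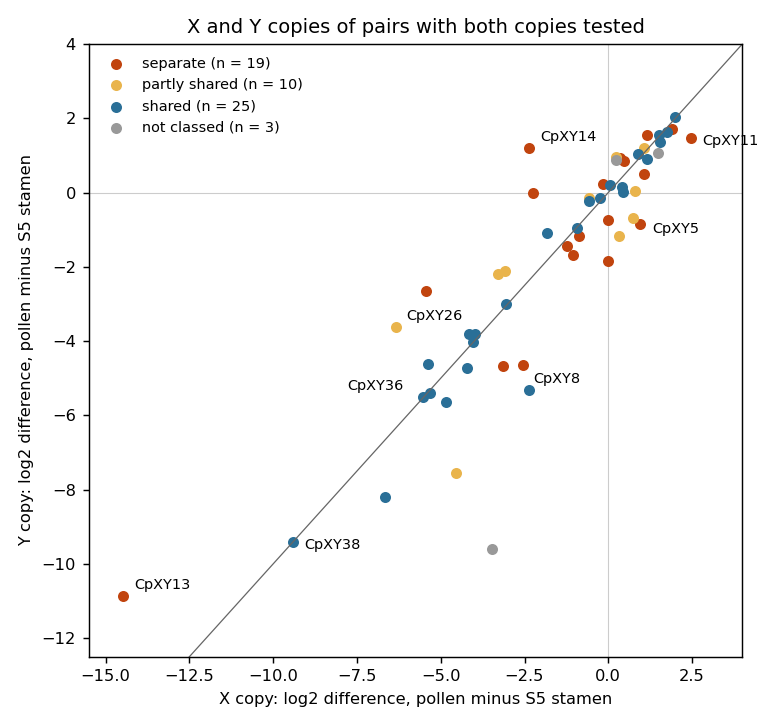
Log2 difference, pollen minus S5 stamen, of the X copy (horizontal axis) and the Y copy (vertical axis) of the 57 pairs with both copies tested, coloured by class, with the line of equal values. The median size of the difference between copies was 0.17 in shared pairs, whose copies count many of the same reads, and 0.715 in separate pairs. CpXY14 lies in the upper left, at -2.35 for the X and 1.19 for the Y copy.

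CpXY14 was the separate pair with the largest change in the balance of its copies. CpXY14_X (X, 3944355 to 3951169) had 634, 569 and 906 counts in S5 stamens and 45, 38 and 55 in pollen. CpXY14_MSY (Y, 866634 to 884333) had 258, 287 and 287 in S5 stamens and 189, 208 and 246 in pollen. In CPM the X copy went from 10153 ± 1643 to 1982 ± 230 (-2.35, SE 0.20, adjusted p = 3.2e-14) and the Y copy from 4058 ± 343 to 9284 ± 1034 (1.19, SE 0.35, adjusted p = 0.0025), with no overlap in either. Within a library, Y counts per X count thus came to 0.403 in S5 stamens, 0.358 in S4 stamens and 4.64 in pollen. On the log2 scale the ratio was between -0.66 and 0.79 in the male groups other than S4 and S5 stamens and pollen. The exons of the copies cover 1437 and 1434 bases, so length hardly enters the ratio.

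The ratio of Y to X counts was tested in 13 of the 21 separate pairs with enough counts, with limma on the log2 ratio (pseudocount 0.5) over all male libraries. The ratio is taken within a library and needs no scaling. It differed in 9 of 13 pairs (69.2%), 3 higher in pollen (23.1%) and 6 lower (46.2%). CpXY14 was higher by 3.53 (SE 0.23, adjusted p = 3.1e-13), PYCpXY22 by 0.62 (SE 0.11, adjusted p = 1.1e-05) and CpXY12 by 0.36 (SE 0.10, adjusted p = 0.0028). All 3 pollen libraries were above all 3 S5 stamen libraries for CpXY14 and PYCpXY22. For CpXY12 the groups overlapped, since stamen replicate 3 (-0.14) was above pollen replicate 2 (-0.21). Its mean log2 ratio was -0.12 in pollen and -0.49 in S5 stamens, but -0.003 in S4 stamens. Across the male groups other than pollen and S5 stamens it was -0.075 to 0.26, so pollen was below all of these.

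In the other direction CpXY8 was lower by 2.15 (SE 0.19, adjusted p = 8.0e-11), with 0.877 Y counts per X count in S5 stamens and 0.197 in pollen. Its log2 ratio had an SD of 0.72 in pollen, on 29 Y counts, and 0.058 in S5 stamens. The fit takes 1 spread per pair over all male groups, so the SE and p do not reflect the wider spread in pollen. CpXY5 was lower by 1.81 (SE 0.17, adjusted p = 2.3e-10). Its X copy had 362, 372 and 336 counts in pollen and 561, 638 and 444 in S5 stamens, which in CPM is a rise from 8101 ± 2041 to 15538 ± 1908 (0.94, SE 0.17). Its Y copy had 65, 76 and 102 counts in pollen and 452, 409 and 420 in the stamens, a fall from 6259 ± 668 to 3498 ± 681 CPM (-0.84, SE 0.29, adjusted p = 0.0111) that did not pass with table totals (-0.57) or the median of ratios (-0.44). The fall of the Y copy also did not pass without pollen replicate 1 (adjusted p = 0.12) or with pollen replicates 1 and 2 summed (0.0941). With DESeq2 the adjusted p was 0.0622.

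CpXY11, whose copies both rose, was lower by 1.03 (SE 0.13, adjusted p = 6.6e-08). CpXY9 fell by 0.62 (SE 0.13, adjusted p = 0.00011) and CpXY3 by 0.60 (SE 0.14, adjusted p = 0.00063). For CpXY9 too the log2 ratio spread more in pollen (SD 0.40) than in S5 stamens (SD 0.049). The mean log2 ratio of CpXY3 was -0.54 in pollen and 0.06 in S5 stamens. In male buds and S1 and S2 stamens it was -0.58, -0.64 and -0.52, and in S3 and S4 stamens 0.005 and 0.41. CpXY29 fell by 0.32 (SE 0.14, adjusted p = 0.0462), with overlap between the groups. CpXY12 and CpXY29 did not pass with the 6 libraries alone, and CpXY29 did not pass without stamen replicate 1 or 3 or pollen replicate 2 or 3, with a difference of -0.15 without stamen replicate 3. The spans of both copies of CpXY3 and of CpXY29 overlap those of features on the opposite strand by 308 to 600 bases. Overlap of their exons was not tested. CpXY7 (-0.75, adjusted p = 0.0518), PYCpXY5, PXCpXY14 and PXCpXY22 did not pass. CpXY7 passed without stamen replicate 3, at -0.92, and with the 6 libraries alone (-0.75, adjusted p = 0.0273).

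**Figure D5:**
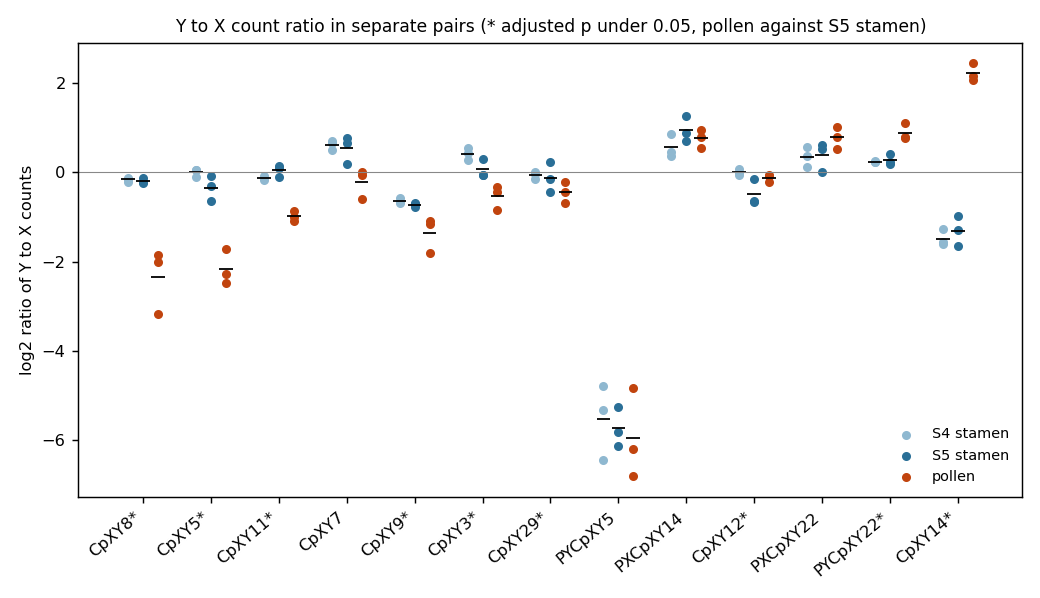
Log2 ratio of Y to X counts (vertical axis) in each S4 stamen, S5 stamen and pollen library for the 13 separate pairs tested, with a bar at each mean and an asterisk where pollen and S5 stamens differed. CpXY14 has a mean of 2.22 in pollen and -1.31 in S5 stamens, and CpXY8 has -2.34 and -0.19.

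By location, the 67 tested X features had 19 higher, 31 lower and 17 not past the test, and their median log2 difference was -0.56, beside -0.57 over all features. The 72 tested Y features had 16 higher, 34 lower and 22 not past the test, and their median was -0.71. In separate pairs 6 of 21 X copies were higher and 9 lower (median -0.15), and 6 of 19 Y copies were higher and 9 lower (-0.73). In partly shared pairs 4 of 10 X copies were higher and 5 lower (-0.17), and 2 of 10 Y copies were higher and 6 lower (-0.92). In shared pairs 6 of 25 X copies were higher and 14 lower (-1.83), and 5 of 25 Y copies were higher and 14 lower (-1.09). Only 5 of the 27 partnerless X features could be tested, of which 1 was higher and 1 lower (-0.17), and 13 of the 27 partnerless Y features, of which 3 were higher and 3 lower (0.36). With the median of ratios, the scaling that moved values most, the median of all features was -0.18. That of X copies was 0.23 in partly shared pairs and 0 in separate pairs, and it was 0.23 for X features without a partner. The 0 is no measured difference: PYCpXY31_X and CpXY31_X had no counts in the 6 libraries and stayed at 0 in every scaling. Medians were the same with the 6 features without pollen counts set at their limits, and could not move, since each limit lay below the median of its class.

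Y features took 67.3 ± 1.56% of the counts in pollen and 53.8 ± 2.35% in S5 stamens, a difference of 13.5 percentage points. The groups did not overlap (exact two-sided permutation test, p = 0.1, the smallest that 3 against 3 allows). Without CpY17_MSY the shares were 51.4 ± 0.522% and 49.9 ± 0.421%, 1.56 points apart (exact permutation test, p = 0.1), and within copies of separate pairs they were 3.77 points apart. In S4 stamens Y features took 50.7 ± 0.550%.

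Across the 12 male groups, pollen had the highest mean CPM for 42 of the 139 tested features and S5 stamens for 11. Over all 19 groups these were 34 and 9. PYCpXY7_MSY, the Y copy of a separate pair, had 0 counts in pollen and in S5 stamens, after 3322 CPM in S4 stamens, while PYCpXY7_X went from 7503 CPM in S5 stamens to 1571 CPM in pollen (-2.26, SE 0.17, adjusted p = 1.5e-15).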

How the data were processed

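The deposited values are raw fragment counts per feature, made by the authors with featureCounts 2.0.0 in paired mode, with multi-mapping reads counted at each place and without strand, per the file headers. Per the submitters' processing notes, reads went through Trimmomatic 0.36 and HISAT2 2.0.5 among the tools named, with featureCounts given there as 1.5.2. For the genome build, none of the sources used here gives a name. None of the feature names matched 1 of the 48816 genes of the reference table, so no sequences or gene names are shown.

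Counts of all 55 libraries in 19 groups were scaled by TMM, filtered with filterByExpr and fitted in 1 edgeR 4.0.16 quasi-likelihood model in R 4.3.3 (robust, prior count 0.125), without a replicate block. The threshold was a two-sided adjusted p of 0.05 over all tested features. Log2 ratios of Y to X counts were tested with limma 3.58.1, in pairs with at least 100 female counts and at least 20 counts per library. PYCpXY7 was left out of this test after its Y copy proved to have 0 counts in the 6 libraries. Deviations from the group mean correlated at -0.046 to 0.049 between pollen and stamen libraries, over all combinations of replicate numbers. Such values cannot tell whether the same number marks a shared plant.

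Features were named by rule: up to 12 of the largest differences in each direction (no overlap, adjusted p below 0.05, on average 10 or more counts per library in the higher group), the 8 highest levels of each group, features at 0 in a group, their partner copies, and pairs past the ratio test. The others, such as CpY19_MSY, CpXY16, CpXY19, CpXY37, PXYCpXY1_X, PYCpXY7 and the features that rose to S5, were named after their values were seen. Members and lists were chosen with earlier results of these data known. Alternatives were other scalings, DESeq2 1.42.0, other filters, fewer libraries, the replicate block and leaving out each library. Scripts were tested on simulated data. Figures were made with Python 3.11.15 and matplotlib 3.10.9.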

Additional observations from a re-analysis of the deposited data

How the results depend on the processing

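The number of features that differed between pollen and S5 stamens was 86 to 103 under other scalings, tests, filters and sample sets, and 91 to 103 (28 to 39 higher, 59 to 64 lower) with 1 library left out. With replicate number as a block in the model of all groups it was 100 (35 higher and 65 lower), the same 100 features. The 6 libraries alone gave 88 with the block and 86 without. Correlations of deviations between pollen and stamen replicates (r = -0.046 to 0.049) cannot tell whether the numbers mark shared plants. Over 5 scalings, CpXY28_X, CpXY48_X, CpXY5_MSY, PYCpXY5_MSY, CpXY7_MSY, CpXY32_MSY and CpXY34_MSY did not keep their calls in each. Some fits covered fewer features. Outside shared and partly shared pairs 36 of 65 tested features passed (13 higher and 23 lower), beside 100 of 139 in the main fit. With the copies of those pairs summed 68 of 102 passed (23 higher and 45 lower). The share that passed, and not only the number, was thus below that of the main fit in each. With pollen replicates 1 and 2 summed 95 passed. The Y share differed by 1.56 points without CpY17_MSY and by 3.77 points in separate pairs alone. CpXY47_MSY turned to 0.27 with the median of ratios (adjusted p = 0.0358) and with DESeq2 (0.27, adjusted p = 0.0448), and passed as lower without stamen replicate 1 (-0.31); the cause was not tested. Against S4 stamens 106 to 114 features passed, and the ratio test passed 8 to 10 pairs, 10 with PYCpXY7 kept. Low counts in pollen limit the folds of features near 0. Summing the copies of pairs, summing pollen replicates 1 and 2, and keeping PYCpXY7 were chosen after seeing the data.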
